A study of Mus musculus with 6 samples.

Results

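The genes described here are 8 genes of Schwann cells and of the peripheral myelin sheath, Sox10, Egr2, Mbp, Pmp22, Mag, Cldn19, Prx and S100b, chosen by name from the 34714 gene symbols counted in gastrocnemius (Gas) muscle. RNA was sequenced from 3 wild-type (WT) and 3 miR-92b knockout (M92KO) mice, all 8 weeks old and untreated. M92KO mice carry a global deletion of miR-92b (C57BL/6JGpt-Mir-92b em22Cd549/Gpt), so that the microRNA is lost in every cell of the muscle, Schwann cells, axons, vessels and muscle fibres included. The study's methods describe the M92KO mice as male and the WT mice as C57BL/6 mice of matched age. The labels name a single knockout line and do not say whether the mice shared litters, so p-values measure only the spread between these 6 samples. The comparison asks how gene expression in the muscle differed in the absence of miR-92b. The study's supplementary methods describe exercise tests and an overnight fast before tissue collection, without naming the sequenced mice. All 8 genes passed the filter on low counts, and Mir92b itself is not analysed here.

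Schwann cells are the glia of peripheral nerves. In a muscle they wrap the motor and sensory axons of the intramuscular nerve branches, where myelinating Schwann cells form compact myelin with its adhesion, paranodal and basal lamina specialisations, while other Schwann cells ensheath small axons or cap the neuromuscular junction. Sox10 keeps cells in the Schwann lineage, Egr2 (Krox20) switches on the myelin genes together with it, and the products of these genes build the sheath.

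Library totals lay between 38246649 and 48209846 counts in WT and between 33160508 and 37019640 counts in M92KO mice, and values are given as CPM, counts scaled to the TMM-normalized library size,. The level that 3 counts stand for, a detection floor for counting error alone, lay between 0.0628 and 0.0916 CPM. Skeletal muscle fibre markers (Acta1, Ckm, Myh4 and others, 8 genes) summed to between 131602 and 149352 CPM in the 6 libraries, and 0 of the 8 differed. Of the genes that define oligodendrocytes, the myelinating cells of the brain and spinal cord, Mobp and Olig2 had 0 counts in all 6 libraries and Mog did not exceed 0.110 CPM. Hapln2 of the same list was detected, with 7 to 25 counts per library and a log2 fold change of 0.76 that was not under an unadjusted p of 0.05 in edgeR's test. Of the genes of melanocytes, another Sox10-positive cell type, Mlana and Tyr also had 0 counts in all 6 libraries, Dct had 0 to 20 and Pmel 0 to 15 counts per library, and Mitf and Kit, which other cells also express, reached 28.7 and 9.16 CPM. In RNA from whole muscle, fewer Schwann cells and less RNA per Schwann cell cannot be told apart.

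Mbp, Pmp22 and Cldn19 were lower in M92KO muscle at an unadjusted p under 0.05 in edgeR's quasi-likelihood test, with M92KO levels of 0.764, 0.852 and 0.738 times the WT level. Thus 3 of the 8 genes were lower, against 6.92% of all 15788 genes tested, and 0 of the 8 were higher, against 5.47% of all genes. The 8 genes were chosen with earlier results of these data known, so setting them beside all genes is a description and not a test. After Benjamini-Hochberg adjustment over all genes, 0% of genes and 0 of the 8 had an adjusted p under 0.05 in edgeR's test, although 1955 genes passed at the unadjusted threshold. DESeq2's Wald test gave 322 genes with an adjusted p under 0.05, again with 0 of the 8 among them and with Mbp nearest (adjusted p = 0.149). The fold change was negative for 8 of the 8 genes, with a median log2 fold change of -0.28 against 0.00 over all genes tested. In 2 of the 8, Pmp22 and Cldn19, the 3 M92KO values all lay below the 3 WT values, as they did in 9.49% of all genes. The count of 3 genes rested on single libraries. It was 0 without the second WT library, 1 without the first or without the third M92KO library, and 0 with the processing steps of the study's supplementary methods. It was 4 with DESeq2's test and with no filter on low counts, where Egr2 joined the 3 genes. Without the third WT library, Prx joined them.

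**Figure D1:**
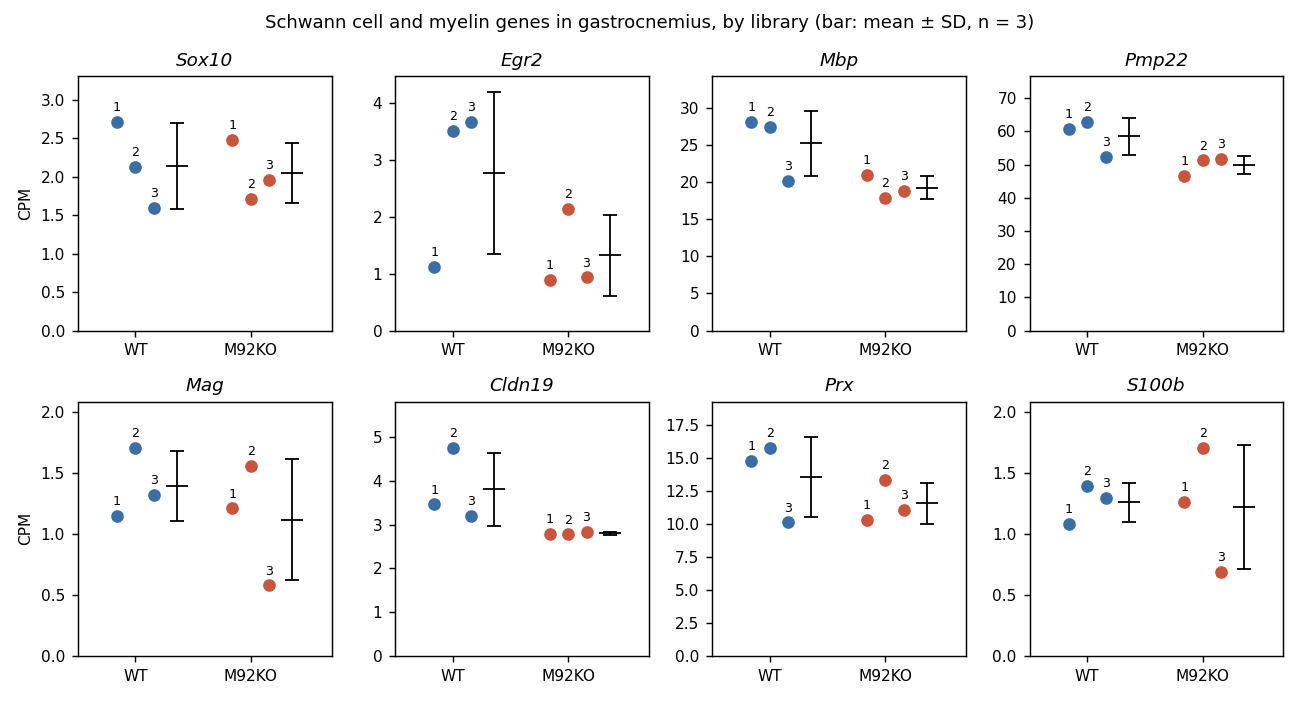
Levels in CPM (vertical axis, from 0) of the 8 Schwann cell and myelin genes in the 3 WT (blue) and 3 M92KO (red) libraries, numbered by replicate, with the mean and SD beside the points. The groups are separate for Pmp22 and Cldn19, whereas for Sox10, Mag, Prx and S100b the M92KO points lie within or across the WT range.

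To set the genes beside one another, levels were divided by the length of each gene's annotated exons. Pmp22, which encodes a membrane protein of compact myelin, stood first in WT muscle with 24.9 ± 2.35 CPM per kb (SD, n = 3). Mbp followed with 2.97 ± 0.522 and Prx with 2.43 ± 0.541 CPM per kb, and the ranges of these 2 overlapped in WT muscle. The exons counted for Mbp include those of the longer golli transcripts of its locus, which lowers its level per kb. Other genes also had more exon bases than their median transcript, with 3398 against 902 for Egr2 and 2354 against 733 for Pmp22. For S100b both lengths were 1484 bases. The order can therefore depend on the length chosen. Cldn19 (0.894 ± 0.196 CPM per kb), S100b (0.849 ± 0.109), Egr2 (0.815 ± 0.420) and Sox10 (0.701 ± 0.182) overlapped with each other and lay below Prx. Mag was last with 0.342 ± 0.0706 CPM per kb in WT muscle, and its WT range ended at 0.419, under the lowest WT value of Sox10 (0.522) but above that of Egr2 (0.331). In M92KO muscle the order of the first 3 was the same, with 21.2, 2.27 and 2.07 CPM per kb, Mag was again last with 0.274 CPM per kb, and Egr2 stood directly above it with 0.389 CPM per kb.

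Sox10, the transcription factor that marks the Schwann lineage (ENSMUSG00000033006, chr15:79154908-79165240 of GRCm38, minus strand), had 2.70, 2.12 and 1.59 CPM in the 3 WT libraries and 2.48, 1.71 and 1.95 CPM in the 3 M92KO libraries. The M92KO values lay inside the WT range. The log2 fold change was -0.06 ± 0.25 (SE), with a 95% interval from -0.62 to 0.50 (edgeR, adjusted p = 0.947; exact permutation p = 0.8). Its sign was not stable, as the fold change was 0.15 without the first WT library and 0.05 without the second M92KO library. With 56 to 125 counts per library and the spread between the 3 libraries of a group, a difference smaller than about that interval was not detectable.

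Egr2, the zinc finger factor that activates myelin genes in Schwann cells and is also an immediate early gene in muscle and blood cells (ENSMUSG00000037868, chr10:67535475-67542188, plus strand), had 1.13, 3.52 and 3.67 CPM in WT and 0.892, 2.14 and 0.936 CPM in M92KO libraries. The second and the third WT libraries were high, while the first WT library lay among the M92KO values. The log2 fold change was -1.07 ± 0.49 (SE), the lowest of the 8 genes, with a 95% interval from -2.18 to 0.04 (edgeR, adjusted p = 0.426; exact permutation p = 0.2). Egr2 did not pass the unadjusted threshold in edgeR's test, but passed it in DESeq2's test, with no filter on low counts, and without the first WT library or the second M92KO library, where the log2 fold change was -1.45 and -1.59. The other immediate early genes had a wide spread in WT libraries. Their summed level over 8 genes ran from 308 to 1355 CPM in WT mice, lowest in the first and highest in the third library. In M92KO mice the sum ran from 381 to 416 CPM, mostly Nr4a1 (239 to 292 CPM). Single genes varied there too, with 1.93, 25.2 and 19.1 CPM for Fosb and 13.0, 34.4 and 13.7 CPM for Fos. Egr1, Egr3, Fos and Fosb were highest in the second M92KO library, as was Egr2. Junb, Ier2 and Arc were highest in the first and Nr4a1 in the third. Of these 8 genes, against 6.92% of all genes tested, Nr4a1 (log2 fold change -0.88) and Junb (-1.67) were lower at the unadjusted threshold. Without the third WT library they no longer were, at -0.37 and -0.43, and Egr2 then had a log2 fold change of -0.81. Neither of them passed without the first or the second M92KO library (-0.87 and -0.81 for Nr4a1, -1.79 and -1.76 for Junb), nor Junb without the third M92KO library (-1.48). The part of this variation in the Egr2 result was not tested.

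The mature microRNAs that M92KO mice lack, and 3′-UTR stretches of Egr2 and Cldn19 that hold the reverse complement of a seed, are shown because a microRNA pairs with its targets through these bases. The miR-92b-3p sequence (chr3:89227126-89227147) and the miR-92b-5p sequence (chr3:89227165-89227188), both from RefSeq on the minus strand of GRCm38.p6, have their seed, bases 2 to 8, in capitals. In the stretches of Egr2 (chr10:67541562-67541588, plus strand) and Cldn19 (chr4:119260343-119260368, plus strand), from GENCODE M21 transcripts, the capitals mark the match.
miR-92b-3p: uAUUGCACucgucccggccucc
miR-92b-5p: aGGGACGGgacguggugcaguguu
Egr2, 7-base match to the 3p seed: gagaatggaaGTGCAATgtcgggcagg
Cldn19, 6-base match to the 3p seed: accctactccTGCAATgactgtcaac
The 7-base word GTGCAAT was found in the annotated 3′-UTR of 1 of the 8 genes, Egr2, and in that of 9.00% of the 13662 tested genes with an annotated 3′-UTR. The 6-base word TGCAAT, which every 7-base match contains, was found in 3 of the 8 (Egr2, Cldn19 and Mbp, whose stretches are not shown) and in 30.1% of all. For the 5p arm, CCGTCCC was found in 0 of the 8 and in 4.77% of all, and CGTCCC in 1 of the 8 (Mbp) and in 12.2% of all. Only the transcript strand was searched, since it is the strand that pairs with the microRNA. The fold change in M92KO mice was negative for all 8 genes, those with and those without these words. A part of the words in these values was not tested. A match is a run of letters and does not show binding.

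Among the proteins of compact myelin, Mbp encodes myelin basic protein, which holds the cytoplasmic faces of the membrane together (ENSMUSG00000041607, chr18:82475146-82585637, plus strand). Mbp had 28.0, 27.4 and 20.1 CPM in WT and 20.9, 17.9 and 18.8 CPM in M92KO libraries. The first and second WT libraries stood above all others, and the third WT library lay just under the highest M92KO library, so the groups overlapped. The mean was 25.2 ± 4.42 CPM (SD, n = 3) in WT and 19.2 ± 1.55 CPM in M92KO mice, a log2 fold change of -0.39 ± 0.13 (SE) with a 95% interval from -0.69 to -0.08 (edgeR, adjusted p = 0.313; exact permutation p = 0.2). Mbp passed the unadjusted threshold with all 6 libraries, but not without the first WT (-0.30), the second WT (-0.32), the second M92KO (-0.34) or the third M92KO library (-0.37).

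Pmp22, whose product spans the myelin membrane and whose dosage is known to matter in inherited neuropathy, is also transcribed in fibroblasts and endothelium (ENSMUSG00000018217, chr11:63128982-63159547, plus strand). It had 60.6, 62.7 and 52.3 CPM in WT and 46.6, 51.2 and 51.7 CPM in M92KO libraries. The groups did not overlap, but the lowest WT and the highest M92KO library were close to each other. M92KO against WT gave a log2 fold change of -0.23 ± 0.087 (SE), with a 95% interval from -0.43 to -0.03 (edgeR, adjusted p = 0.347; exact permutation p = 0.1, the smallest that 3 against 3 samples can give). It no longer passed the unadjusted threshold without the first WT (-0.21), the second WT (-0.18) or the first M92KO library (-0.19).

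The compact myelin list held 6 genes reported here, Mbp and Pmp22 among them, and 3 were lower and 0 higher in M92KO muscle, with a median log2 fold change of -0.24. Mal, a proteolipid of myelin and other membranes, had 6.94, 6.73 and 4.82 CPM in WT and 3.94, 4.37 and 4.35 CPM in M92KO libraries. The 3 M92KO values all lay below the 3 WT values, as they did in 9.49% of all genes. As for Mbp, the first and second WT libraries were the highest. Its log2 fold change was -0.55 ± 0.16 (SE; edgeR, adjusted p = 0.258), and Mal passed the unadjusted threshold with each library left out.

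Since the genes share a cell type, they were also set against each other within a library, with pairs chosen after the values were seen. The log2 ratio of Mbp to Sox10 was 3.37, 3.68 and 3.65 in WT and 3.07, 3.38 and 3.26 in M92KO libraries. The first WT library lay just below the second M92KO library, so the groups overlapped. The difference was -0.33 (exact permutation p = 0.2, and 0.7 after Benjamini-Hochberg adjustment over the 7 ratios computed here). Relative to Sox10, Cldn19 differed by -0.37 (exact permutation p = 0.3), Pmp22 by -0.18 (p = 0.6) and Prx by -0.16 (p = 0.7), and Mbp differed by -0.25 relative to S100b (p = 0.7), each with overlapping groups and an adjusted p of 0.7. The ratio of Egr2 to Sox10 differed by -0.95 (exact permutation p = 0.3) and that of Egr2 to Egr1, another immediate early gene, by -0.51 (p = 0.4), again with overlapping groups and an adjusted p of 0.7.

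Of the genes for the non-compact and paranodal parts of the sheath, Cldn19 encodes a claudin of the tight junctions between myelin layers (ENSMUSG00000066058, chr4:119255414-119262438, plus strand). It had 3.46, 4.76 and 3.20 CPM in WT and 2.79, 2.78 and 2.84 CPM in M92KO libraries. The M92KO libraries were almost equal and lay below every WT library, of which the second was the highest. The log2 fold change was -0.44 ± 0.18 (SE), with a 95% interval from -0.86 to -0.02 (edgeR, adjusted p = 0.388; exact permutation p = 0.1). Without the second WT library it was -0.25 and did not pass the unadjusted threshold, and without the first, second or the third M92KO library it did not pass either, at -0.44, -0.43 and -0.45. Of its 4263 exon bases, 90 overlap an antisense gene, Gm12927, and as the strand of the counting is not given in the sources used here, reads from these bases cannot be assigned.

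Mag encodes myelin-associated glycoprotein, which faces the axon in the innermost myelin layer (ENSMUSG00000036634, chr7:30899176-30914873, minus strand). It had 1.15, 1.71 and 1.32 CPM in WT and 1.21, 1.56 and 0.578 CPM in M92KO libraries. Only the third M92KO library, with 21 counts, lay below the WT range. Mag had a log2 fold change of -0.32 ± 0.35 (SE), with a 95% interval from -1.12 to 0.48 (edgeR, adjusted p = 0.765; exact permutation p = 0.5), and it was -0.01 without that library.

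Prx encodes periaxin, which links the outer Schwann cell membrane to the basal lamina through the dystroglycan complex (ENSMUSG00000053198, chr7:27499324-27520214, plus strand). It had 14.8, 15.8 and 10.1 CPM in WT and 10.3, 13.3 and 11.1 CPM in M92KO libraries. As for Mbp, the first and second WT libraries were high, and the third WT library was here the lowest of all 6. The log2 fold change was -0.23 ± 0.17 (SE), with a 95% interval from -0.62 to 0.17 (edgeR, adjusted p = 0.656; exact permutation p = 0.4). Without the third WT library Prx had a log2 fold change of -0.40 and passed the unadjusted threshold. An antisense gene, Gm15541, overlaps 300 of its 5579 exon bases.

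S100b, a calcium-binding protein used as a marker of Schwann cells (ENSMUSG00000033208, chr10:76253853-76261159, plus strand), had 1.08, 1.40 and 1.30 CPM in WT and 1.27, 1.71 and 0.688 CPM in M92KO libraries. The second M92KO library was the highest and the third M92KO library the lowest of the 6, as for the low value of Mag. S100b had a log2 fold change of -0.05 ± 0.32 (SE), with a 95% interval from -0.79 to 0.69 (edgeR, adjusted p = 0.969; exact permutation p = 0.8). It changed sign without the third M92KO library (0.24) and without the second WT library (0.03).

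Sox10 and Egr2 act on myelin gene promoters, so the 250 bases before the annotated starts were searched on both strands for the core words ACAAAG and ACAATG, bound by SOX factors, and for GCGNGGGCG, bound by EGR factors. The RefSeq windows of GRCm38.p6 included 6 of the 8 genes with 16 windows in all. ACAAAG was found in 2 of the 16 windows, both of Mag and both covering the same bases, and in 16.5% of 32851 windows of all genes. ACAATG was found in 0 of the 16 and in 10.7% of all, and GCGNGGGCG in 0 of the 16 and in 4.70% of all. The stretch of Mag (chr7:30914972-30915001, minus strand), shown as the single match among these genes, reads CTTTGT in capitals, the reverse complement of ACAAAG.
Mag, bases around the match: tgacaagggcccCTTTGTgcccccctcccc
The match lies at -126 to -121 relative to one annotated start of Mag and at -67 to -62 relative to another.

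The wider set of Schwann cell and myelination genes, 7 lists in all, held 70 other genes reported here. These lists and the marker lists were also chosen with earlier results of these data known, so their shares are not tests. Of the 70 genes, 61 passed the filter on low counts. Of these 61, 10 were lower and 1 was higher at the unadjusted threshold, against 6.92% and 5.47% of all genes. A negative fold change was found in 42 (7897 of the 15788 genes tested had one), and the median log2 fold change was -0.14. In the non-compact myelin, node and basal lamina list (17 genes tested, 3 lower and 1 higher, Cldn19 included), Itga6, a laminin receptor subunit also made by endothelium, had a log2 fold change of -0.52 and Gpr37l1, an orphan receptor of glia, one of -0.87. Smtnl2, in the same list but at 438 CPM in WT muscle, was higher (0.25). Cnp, an enzyme of uncompacted myelin, had a log2 fold change of 0.11 and did not pass, and Gjb1, the connexin of Schwann cell incisures, had -0.99 at 0.413 CPM in WT muscle and did not pass either. Among the transcription factors and cofactors, 1 of 10 tested was lower, Nab2, a cofactor that binds Egr2 (-0.41). The 1050 exon bases of Nab2 that an antisense gene overlaps leave its value uncertain.

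Of the receptors and ligands of myelination, 1 of 10 tested was lower, against 6.92% of all genes tested, and the list median log2 fold change was -0.03. The lower gene was Adam22, the axonal and glial partner of Lgi4. It had 7.18, 8.59 and 6.81 CPM in WT and 5.38, 5.56 and 5.34 CPM in M92KO libraries (log2 fold change -0.47). The neuregulin receptor Erbb3, which Schwann cells need for survival and myelination, had 11.4, 11.0 and 9.42 CPM in WT and 10.7, 10.8 and 11.0 CPM in M92KO libraries, a log2 fold change of 0.03 with a 95% interval from -0.20 to 0.27. Of the 6 galactolipid and fatty acid enzymes, 1 was lower, beside the same 6.92% of all genes. This was Ugt8a, which makes the galactosylceramide of myelin (-0.50). Fa2h, which hydroxylates the fatty acids of this lipid, had a fold change of the same size (-0.55) that did not pass. Against 6.92% of all genes tested, 3 of 9 in the pan-Schwann list were lower. These were Kcna1, a potassium channel subunit (-0.54), Cdh19, a cadherin of the lineage (-0.54), and Art3 (-0.22), which at 255 CPM in WT muscle is not particular to Schwann cells. Sox10 and S100b of the same list did not pass. Of 13 tested genes of non-myelinating, immature and repair Schwann cells, 1 was lower, again beside 6.92% of all genes, and the list median was -0.11. The lower gene was Ngfr, the low-affinity neurotrophin receptor. It had 1.67, 2.90 and 2.37 CPM in WT and 1.67, 0.427 and 0.881 CPM in M92KO libraries (log2 fold change -1.21).

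Of these 11 genes, Mal, Itga6, Adam22 and Kcna1 passed the unadjusted threshold with each library left out. The number of lower genes was 5 without the first WT library, 6 without the second WT library and 6 without the first M92KO library, against 10 with all 6. The single higher gene became 0 without the second WT library, 2 without the first WT library and 7 without the first M92KO library. Nab2 did not pass without the first WT, the first M92KO or the second M92KO library (-0.35 to -0.33). Cdh19 did not pass without the first WT (-0.49), second WT (-0.54) or first M92KO library (-0.38), nor Ngfr without the second WT (-1.02) or the third M92KO library (-1.12), nor Smtnl2 without the second WT library (0.22). Ugt8a did not pass without the first WT, second WT, first M92KO or the third M92KO library (-0.50 to -0.40). Art3 did not pass without the first WT (-0.24), the third WT (-0.17), second M92KO (-0.16) or the third M92KO library (-0.20), and Gpr37l1 did not pass without the first or second library of either group, where its fold change ran from -0.90 to -0.57.

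**Figure D2:**
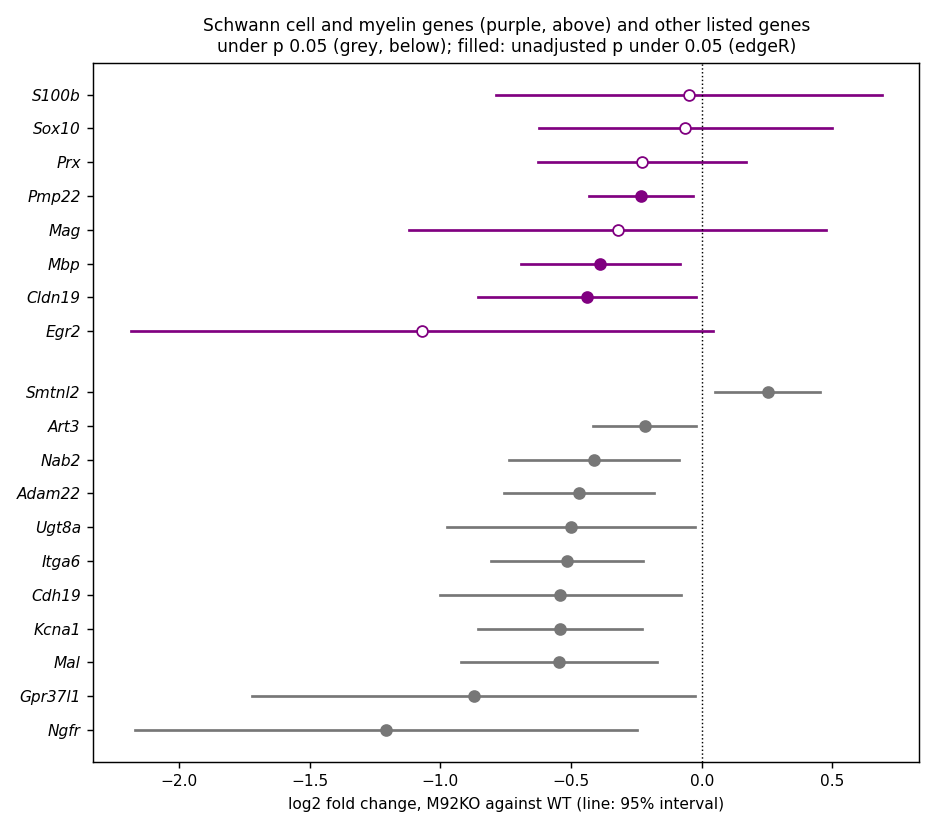
Log2 fold change of M92KO against WT (horizontal axis, line for the 95% interval) of the 8 Schwann cell and myelin genes in purple and of the 11 other listed genes with an unadjusted p under 0.05 in grey, with filled points for genes under that threshold in edgeR's test. All 8 purple points lie left of 0, from -1.07 for Egr2 to -0.05 for S100b, and the interval of 5 of them includes 0.

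The 8 genes did not follow a single pattern across the libraries. Each gene's log2 CPM was centred on its own mean over the 6 libraries and the values were averaged over the 8 genes, which gave 0.06, 0.41 and 0.06 in WT and -0.16, 0.06 and -0.42 in M92KO libraries. The second WT library was the highest and the third M92KO library the lowest on this average. Each of the 8 genes is part of this average, so its distance from the average is not a test. Cldn19 lay nearest to the average, with a root mean square difference of 0.164 on the log2 scale, and ranked 293rd among all genes tested. Pmp22 (0.187), Prx (0.204), Mbp (0.225), S100b (0.282), Mag (0.299) and Sox10 (0.374) followed, and Egr2 lay farthest away (0.675). The median over the other genes tested was 0.298. Mag and S100b shared their low value in the third M92KO library, and Mbp, Pmp22, Cldn19, Prx and Sox10 each had their lowest WT value in the third WT library.

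**Figure D3:**
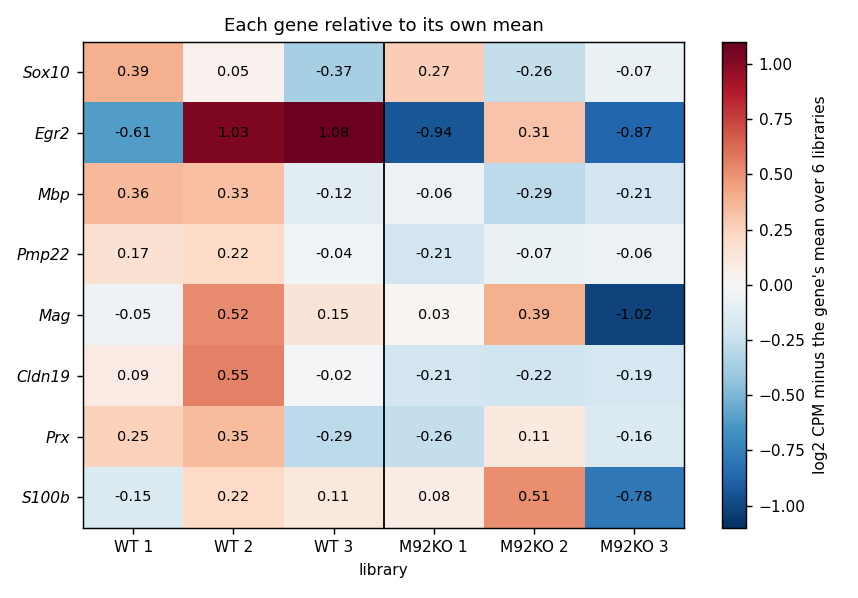
Log2 CPM minus each gene's mean over the 6 libraries (colour and printed value) for the 8 genes (rows) and the 3 WT and 3 M92KO libraries (columns). Mbp, Pmp22 and Cldn19 are above their mean in the first and second WT libraries and below it in all 3 M92KO libraries, whereas Egr2 is at -0.61 in the first and 1.08 in the third WT library.

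Outside these lists, the genes whose centred profile was most like the average of the 8 were Gm30684 (root mean square difference 0.0498 on the log2 scale over 6 libraries), Mbtd1 (0.0762), Pcdhb17 (0.0837), Ppm1h (0.0840), Nbea (0.0857), Gm38952 (0.0900), Crybg1 (0.0922) and Smco3 (0.0932). When Egr2 was left out of the average, only Gm30684 remained among the 8 nearest. When Mbp alone was taken as the profile, 0 of these genes remained. Against the profile of Mbp, Mal ranked 91st (0.137) among all genes tested. Pmp22 (0.156), Cldn19 (0.163), Prx (0.199) and Sox10 (0.213) were also nearer to Mbp than the median gene, at 0.298, whereas Mag (0.482), S100b (0.467) and Egr2 (0.859) were farther from it.

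The summed level of the 8 genes was 112.9, 119.4 and 93.6 CPM in WT and 86.5, 92.3 and 88.6 CPM in M92KO libraries, with Pmp22 as its largest term in every library. The markers of other cells in nerve and connective tissue had the following values, beside 6.92% of all genes tested that were lower and 5.47% that were higher. Of 5 tested endoneurial fibroblast markers, Spry1 (log2 fold change -0.44) and Etv1 (-0.40) were lower. The list summed to between 55.1 and 71.7 CPM in WT and between 45.5 and 48.7 CPM in M92KO libraries. Most of each sum was Spry1 alone, with 41.5, 50.1 and 56.9 CPM in WT and 33.4, 38.8 and 37.4 CPM in M92KO libraries. Of 6 fibroblast markers, Dcn (-0.33) and Col1a1 (-0.55) were lower and Ly6a (0.37) was higher, with sums between 1408 and 1772 CPM in WT and between 981 and 1344 CPM in M92KO libraries. Of 5 tested perineurial markers, Slc2a1, which muscle and endothelium also use, was higher (0.40), and the sums ran from 23.8 to 29.2 CPM in WT and from 27.2 to 32.5 CPM in M92KO libraries. The endothelial and macrophage lists had 0 of 6 changed genes each, and the fat cell and red cell lists 0 of 5 each, although the fold change was positive in 5 of 5 genes of both, with median log2 fold changes of 0.62 and 0.66. Of 3 tested melanocyte-list genes, 1 was lower, Kit, which mast cells also express, and of 3 tested oligodendrocyte-list genes, 1 was lower, which is Mbp itself. Col1a1 did not pass without the first WT (-0.27) or the first M92KO library (-0.45). Etv1 did not pass without the first WT library (-0.34), nor Kit (-0.62 with all 6 libraries) without the second WT (-0.33) or the third M92KO library (-0.58). In the axon and motor neuron list, Chat, Nefm, Mnx1 and Slc18a3 had 0 counts in all 6 libraries. The 2 genes of this list that were tested went opposite ways. Prph had a log2 fold change of -0.47 and did not pass, and Stmn2 was higher (0.52). The part of these other cells in the lower Mbp, Pmp22 and Cldn19 values was not tested.

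For Mbp, Pmp22, Egr2 and Cldn19 the direction of the fold change was kept in more of the alternative fits than the call. These fits reuse all or most of the same 6 libraries and are not independent of each other. Mbp, Pmp22, Mag, Prx, Egr2 and Cldn19 had a negative fold change in 14 of 14 alternative fits, S100b in 12 and Sox10 in 11. Mbp and Pmp22 passed the unadjusted threshold in 7 of the 8 fits on all 6 libraries with other settings and in 2 and 3 of the 6 fits with a library left out. Cldn19 and Egr2 passed in 4 of 8 and 2 of 6 each.

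**Figure D4:**
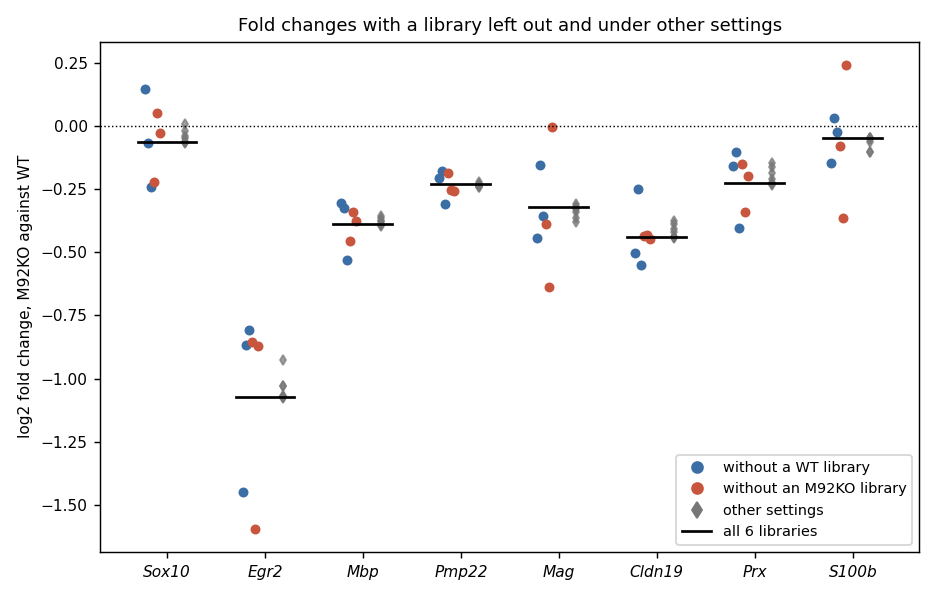
Log2 fold change of M92KO against WT (vertical axis) of the 8 genes with all 6 libraries (black line), with 1 WT (blue) or 1 M92KO library (red) left out and with other settings on all 6 libraries (grey diamonds). Mbp stays between -0.53 and -0.30 and Pmp22 between -0.31 and -0.18 when a library is left out, Egr2 runs from -1.59 to -0.81, and Sox10 and S100b cross 0.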

How the data were processed

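RNA from the Gas muscle of 3 WT and 3 M92KO mice was extracted with an RNeasy kit and made into libraries with a SMARTer kit, per the labels. The authors deposited raw counts of reads per gene symbol, without normalization. The submitters' processing notes name GRCm38 and mm10, while the aligner, the counting program and its strand setting are not given in the sources used here. Without the strand, reads of overlapping antisense genes cannot be separated.

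Counts were filtered with filterByExpr (minimum count 10, minimum total count 15), TMM-normalized and compared with edgeR's quasi-likelihood test (edgeR 4.0.16 in R 4.3.3) without a covariate, and p-values were adjusted over 15788 genes with the Benjamini-Hochberg method. Genes lower or higher are those with an unadjusted p under 0.05. Two-sided exact permutation tests used log2 CPM. Positions, exon lengths and 3′-UTRs (at least 20 bases) came from GENCODE M21, with 25686 symbols matched directly and 420 by a synonym.

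Alternatives were DESeq2's size factors, DESeq2 1.42.0, other filters, the steps of the study's supplementary methods (quantile normalization, log2 after adding 1, limma 3.58.1), a replicate block, offsets for GC content and length (lowess span 0.3), both together, and each library left out in turn. The named genes are the 8 genes, up to 4 genes with the smallest p among those under 0.05 in each list (otherwise the gene with the smallest p), markers that a result needs, and the 8 genes most like their average profile. Cnp, Erbb3, Gjb1 and Fa2h were chosen after their values were seen. The 8 genes and the lists (7 of Schwann cell genes, 13 of cell markers) were chosen with earlier results of these data known. Some listed genes are not reported here. The fit was tested on simulated data. Python 3.11.15 with pandas 2.3.3, scipy 1.17.1 and matplotlib 3.10.9 made tables and figures.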

Additional observations from a re-analysis of the deposited data

How the results depend on the processing

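The median log2 fold change of the 8 genes stayed negative in all 14 alternatives, from -0.38 to -0.17 with a library left out. The number of the 8 that were lower, 3 in the report, lay between 0 and 4 when a library was omitted, and was 0 with the steps of the supplementary methods. The number higher was 0 throughout. Other listed genes lower numbered 10, from 5 to 12 with a library left out and 5 with the supplementary steps. Those higher numbered 1, from 0 to 7 with a library left out, 2 with DESeq2, 2 with no filter, 3 with GC and length offsets and 0 with the supplementary steps. The count of all genes with an unadjusted p under 0.05, 1955, ran from 1221 (without the second WT library) to 2984 (without the first M92KO library). Genes with an adjusted p under 0.05 numbered 0 with edgeR, 322 with DESeq2, 6 with no filter, 42 with the supplementary steps, and from 0 to 399 with a library left out. Sox10 reversed to 0.0056 with the supplementary steps. With a library left out, Sox10 ran from -0.24 to 0.15, S100b from -0.37 to 0.24 and Erbb3 from -0.046 to 0.090. The cause of these shifts was not tested. Deviations of same-numbered libraries of the groups were weakly correlated (r = 0.074, 0.038 and 0.015 across genes), and those of unlike-numbered libraries had r from -0.072 to 0.039. These values cannot show whether same-numbered libraries shared a batch, which the labels do not say. The replicate number is used here only to name a library. With the replicate block, 3 of the 8 genes were lower, Egr2 in place of Cldn19, 1691 genes passed the unadjusted threshold and 2 the adjusted one, and 2 also did with the block and the GC and length offsets. Among the 8 nearest genes by profile, 1 remained without Egr2 and 0 with Mbp alone, both chosen after seeing the data. Counts of 21 to 66 for Mag, 25 to 62 for S100b and 31 to 175 for Egr2 limit what can be detected in these genes.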

Other observations

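Of 7 tested genes of the neuromuscular junction, which terminal Schwann cells cap, 2 were higher in M92KO muscle and 0 were lower, against 5.47% and 6.92% of all genes tested, with a median log2 fold change of 0.15. Chrnb1, a subunit of the acetylcholine receptor, had 50.1, 51.0 and 55.0 CPM in WT and 64.2, 60.4 and 61.6 CPM in M92KO libraries, and these groups did not overlap. Its log2 fold change was 0.25 ± 0.067 (SE; edgeR, adjusted p = 0.214), and it passed the unadjusted threshold with each library left out. Musk, the kinase that clusters this receptor, had 16.0, 16.4 and 14.1 CPM in WT and 19.3, 16.9 and 20.2 CPM in M92KO libraries, with a log2 fold change of 0.28 ± 0.10 (SE; edgeR, adjusted p = 0.335). It did not pass without the third WT (0.21) or the third M92KO library (0.23). Of the axonal genes, Stmn2 was higher, with 4.74, 3.49 and 3.62 CPM in WT and 6.27, 6.23 and 4.51 CPM in M92KO libraries, where the lowest M92KO library lay inside the WT range. Its log2 fold change was 0.52 ± 0.18 (SE; edgeR, adjusted p = 0.324), and it did not pass without the second WT (0.44), the third WT (0.46), first M92KO (0.44) or second M92KO library (0.45). The part of the nerve in these muscle-fibre genes was not tested.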
